A study of Mus musculus with 2 samples.

Results

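A module of 42 lysosomal genes was compared between colon lamina propria phagocytes and blood monocytes of the mouse. The members are acid hydrolases and their helpers, proteins of the lysosomal membrane, subunits of the vacuolar proton pump and the transcription factors TFEB, TFE3 and MITF. They were listed by name, by a rule that uses no measured value, though with earlier results of these data known. Cathepsins were left out of the module. Each was found through the gene symbol printed for its probes or the current symbol of the probe's RefSeq transcript. All 42 had a probe and all 42 were measured, out of 26202 named genes on the array and 15350 measured genes. A gene counted as measured when the signal of at least 1 pool stood well above background on each array.

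The study set 2 pools of sorted cells against each other on 2 arrays. The colon pool held CX3CR1high CD11b+ CD11c+ cells of the large intestinal lamina propria from CX3CR1gfp/+ mice, in which a green fluorescent protein gene stands in for 1 allele of the fractalkine receptor gene Cx3cr1. The blood pool held Ly6c+ CD11b+ monocytes from C57BL/6J mice. Array 1 carried the colon pool in the red dye Cy5 and the blood pool in the green dye Cy3, and array 2 carried them with the dyes swapped. The series text gives n as 10 for the colon cells and 6 for the blood cells without saying what was counted, and the ages of the mice are not given in the sources used here. Both samples were labelled as pooled, so each group is 1 biological replicate. The SD printed with a ratio is the spread between the 2 arrays, which is technical, and no test between the groups was possible. Tissue, genotype and isolation differed together between the pools and cannot be told apart.

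Lysosomes are acidic compartments in which macromolecules taken up by endocytosis, phagocytosis or autophagy are broken down to reusable parts. A proton pump of many subunits in the membrane keeps the lumen acidic, soluble hydrolases cut glycans, lipids and proteins there, and membrane proteins carry the products out. Many lysosomal genes carry a short palindromic element, the CLEAR motif, through which TFEB and its relatives raise their transcription together. Tissue macrophages are rich in lysosomes, and intestinal macrophages continually clear dying cells and luminal material.

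Ratios below are log2 of colon over blood after background correction and loess normalisation within each array, which sets the typical gene of every intensity near 0. A gene was called higher or lower when both arrays showed at least a 2-fold difference the same way and the brighter pool was well above background on both. By that rule 11 of the 42 lysosomal genes were higher in the colon pool (26.2%), against 14.4% of all measured genes, and 1 was lower (2.38%), against 4.50% of all measured genes. The other 30 were not called. At a threshold of 1.5-fold 19 members were higher (45.2%), against 22.5% of all measured genes, and 2 lower (4.76%), against 11.1%, while at 3-fold 4 were higher (9.52%), close to the 8.78% of all measured genes, and 0 lower, against 1.83%. The median member had a log2 ratio of 0.62, against 0.06 for all measured genes, and 34 members lay above 0 and 8 below. Acp5 had the highest log2 ratio of the module at 4.33 and Tfeb the lowest at -1.35. The median SD between arrays over the members was 0.09.

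**Figure D1:**
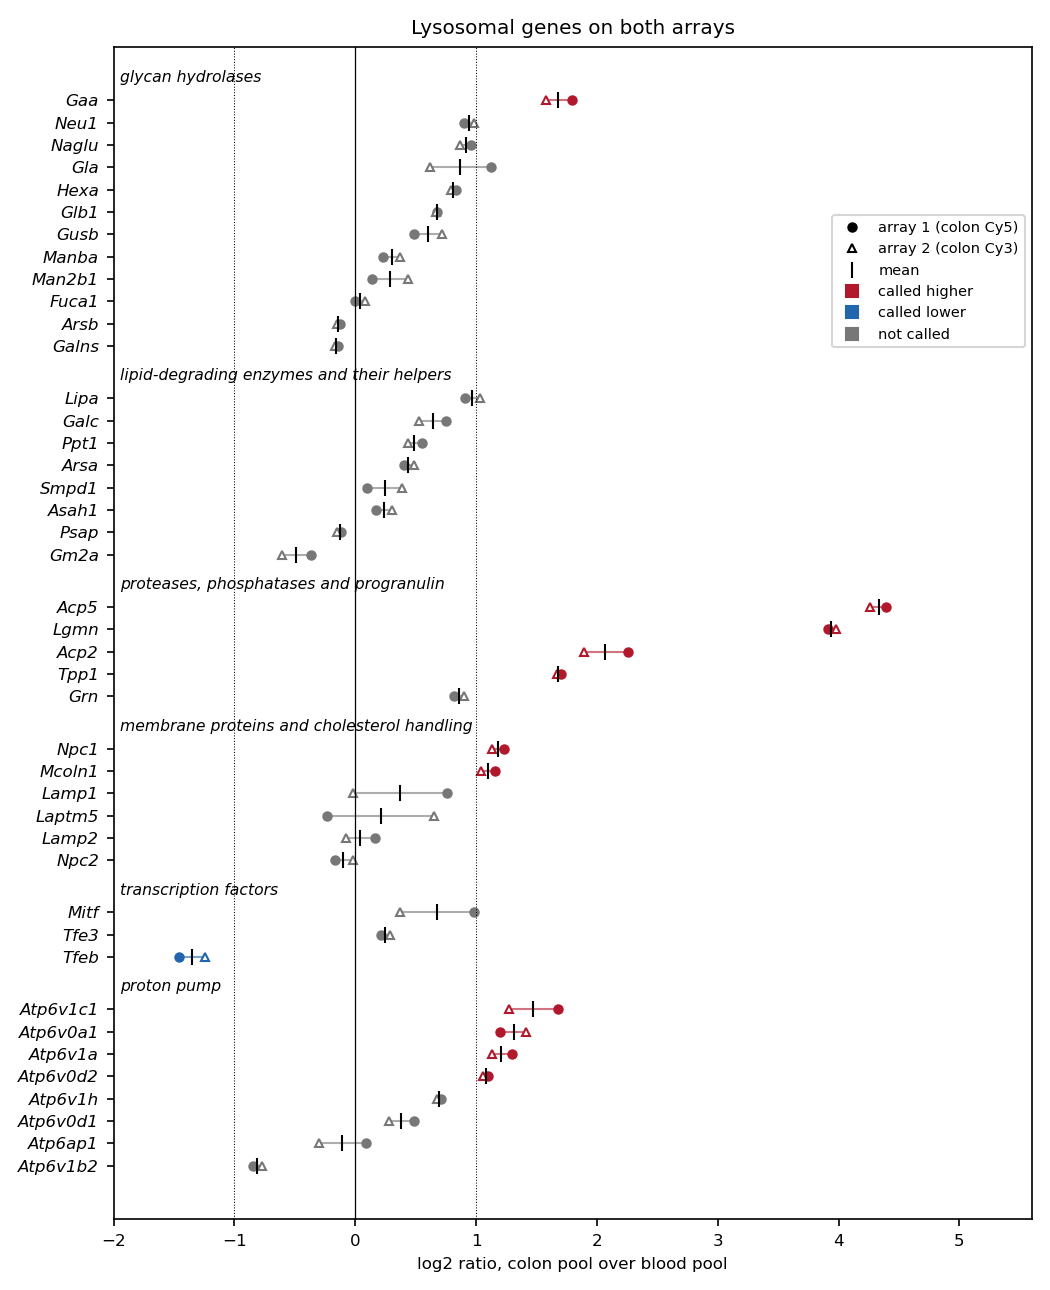
The log2 ratio of colon over blood (x axis) is plotted for each of the 42 lysosomal genes (y axis, grouped by role), with array 1 as circles, array 2 as triangles and the mean as a bar. Acp5 and Lgmn stand far to the right at 4.33 and 3.94, Tfeb is the only called gene on the left at -1.35, and most other members lie between 0 and 1.

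How far the module as a whole stood above 0 depended on the scaling. With each array centred on its median in place of loess, the median member was at -0.08 and the median of all genes at -0.29, and 2 of 42 members were called higher (4.76%), against 7.36% of all genes. With the scanner software's own ratios, the median member was at 0.52 and that of all genes at -0.11, and 10 of 42 members were called higher (23.8%), against 20.4% of all genes. Thus the members' share of higher calls was above the background by loess, close to it by the software's ratios and below it by median centring. The calls of Acp5 and Lgmn as higher and of Tfeb as lower held under all 3 scalings.

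Brightness moved with these differences. Of the 42 members, 24 fell in the brightest 2 of 10 equal bins of the measured genes by intensity, where 5 of the 24 were called higher by loess (20.8%), against 13.3% of the 3070 genes there, and 0 were called lower, against 6.84%. Under median centring the median of all genes was 0.23 in the dimmest bin and -0.73 in the brightest, while by loess it was 0.14 and 0.08. Set against all genes of its own bin, the median member was 0.55 higher by loess and 0.54 higher by median centring. That comparison, added after the values were seen, placed 33 of 42 members above their bin's median by loess and 34 of 42 by median centring. The 2 scalings differ by a shift that depends on intensity, and taking away the bin's median removes most of it. The 2 results were therefore bound to be close, and the second is not separate support for the first.

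**Figure D2:**
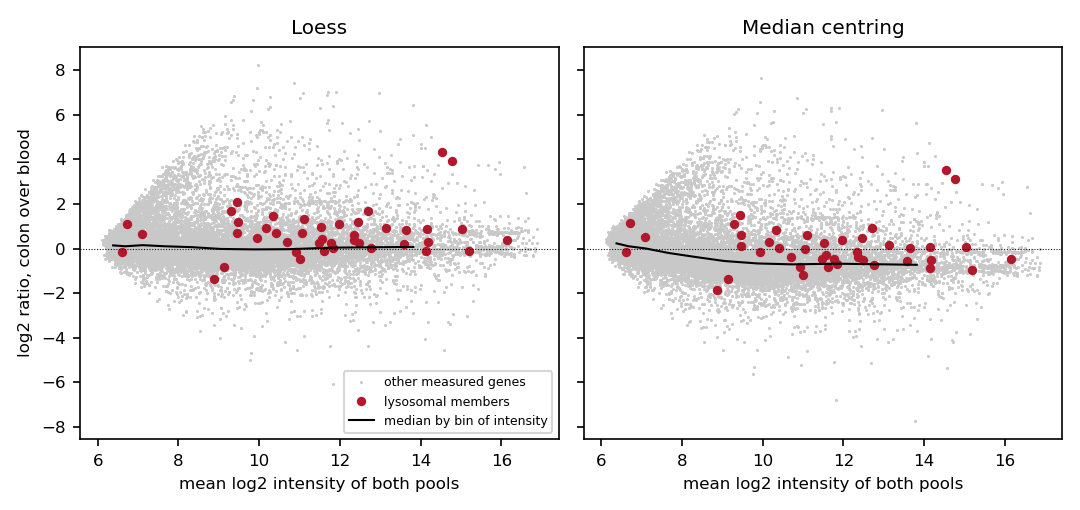
The log2 ratio of colon over blood (y axis) is plotted against the mean log2 intensity of both pools (x axis) for all measured genes in grey and the 42 lysosomal members in red, by loess on the left and by median centring on the right. The black line of medians by bin of intensity stays between -0.04 and 0.14 by loess and falls to -0.73 at the bright end by median centring, and the red points lie mostly above it in both panels.

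The scanner intensities themselves can be compared within a dye, since each pool was read once in Cy5 and once in Cy3. Each such comparison crosses the 2 arrays, so differences of labelling, loading or scanning remain in it. Before any scaling, 15 of 42 members were brighter in the colon pool in both dyes (35.7%), against 30.2% of all measured genes and 16.7% of the genes in the brightest 2 bins. A further 21 members were brighter in the blood pool in both dyes, against 61.5% of all measured genes and 78.5% of the genes in the brightest 2 bins. The median intensity over the spots was higher in the colon pool, at 96.6 units against 79.9 in the blood pool in Cy5 and 67.1 against 64.2 in Cy3. Summed over all named genes, the signal was lower in the colon pool in each dye, with 78565222 units in the colon pool and 101456394 in the blood pool in Cy5, and 25008041 in the colon pool and 40054792 in the blood pool in Cy3. Summed over the 42 members it was higher in the colon pool, with 733223 units against 614674 in the blood pool in Cy5, and 259832 against 232209 in Cy3, but without Acp5 and Lgmn the sum of the other 40 was lower in the colon pool, with 497079 units against 582332 in the blood pool in Cy5 and 152079 against 223478 in Cy3. All 11 members called higher were brighter in the colon pool in both dyes. The call itself required at least a 2-fold difference on each array from the same readings, so this is not separate support. Fewer cells of a type and less RNA per cell cannot be told apart in such pools.

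**Figure D3:**
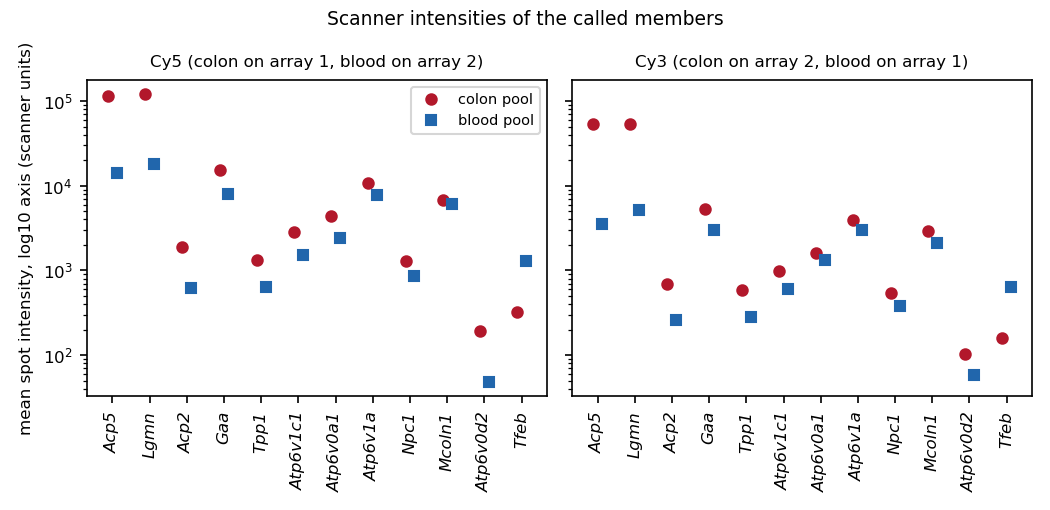
Mean spot intensity in scanner units (log10 axis) is shown before normalisation for the 12 called members, in Cy5 on the left and in Cy3 on the right, with the colon pool as red circles and the blood pool as blue squares. The colon pool lies above the blood pool in both dyes for every member except Tfeb, and the gap is widest for Acp5 and Lgmn.

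Of the transcription factors, Tfeb, which drives lysosomal genes when it is released from mTORC1 control into the nucleus, was lower in the colon pool. Its probe, at chr17:47929089-47929148 of the mm9 build, read 320 units in the colon pool and 1284 in the blood pool in Cy5, and 157 in the colon pool and 639 in the blood pool in Cy3. Blood was brighter in each dye, and the log2 ratio was -1.46 on array 1 and -1.24 on array 2, a mean of -1.35 ± 0.16 (SD of 2 arrays), or 2.55-fold lower. It stood at rank 14893 of 15350 genes counted from the highest.

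Tfe3, a close relative of Tfeb that binds the same element, was not called. Its probe (chrX:7352268-7352327) read 7633 units in the colon pool and 10466 in the blood pool in Cy5, and 2907 in the colon pool and 4503 in the blood pool in Cy3. The ratios of 0.21 and 0.29 on arrays 1 and 2 were small and of one sign (mean 0.25 ± 0.06), and a second probe gave 0.05. Mitf, the third member of the family and a regulator of osteoclast and pigment cell genes, was also not called. Its probe (chr6:97971229-97971288) read 3643 units in the colon pool and 3627 in the blood pool in Cy5, and 1170 in the colon pool and 1271 in the blood pool in Cy3. The arrays gave 0.98 and 0.37 (mean 0.68 ± 0.43), and a second probe 1.01 ± 0.24, so by loess Mitf lay above 0 on both probes without reaching 2-fold on each array. Under median centring the probes that stood for Tfe3 and Mitf were at -0.50 and -0.01. An mRNA ratio says nothing of where these proteins are in the cell.

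Because this family binds E-boxes in lysosomal promoters, the promoters of the members were read from RefSeq on the build GRCm38.p6, as 250 bases before to 50 after each transcript start. Of the 42 members 35 had an entry; Galns, Asah1, Npc1, Atp6v0d2, Atp6v1b2, Atp6v1c1 and Atp6v1h did not. Shown here are 250 bases before the start of the 4 members called higher whose promoters hold CACGTG, the palindromic core of the CLEAR motif, then Acp5, the member of the highest ratio, and Lamp1, which held most copies of the core and was not called. Capitals mark CACGTG, and in Acp5 the related 8-base E-box TCATGTGA, which reads TCACATGA on the strand shown.
Lgmn, chr12:102439093-102439342, minus strand: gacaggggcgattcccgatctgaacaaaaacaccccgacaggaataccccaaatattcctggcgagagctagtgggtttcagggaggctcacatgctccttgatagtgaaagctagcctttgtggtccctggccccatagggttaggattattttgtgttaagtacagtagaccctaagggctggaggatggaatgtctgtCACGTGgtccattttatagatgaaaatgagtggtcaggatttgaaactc
Gaa, chr11:119267713-119267962, plus strand: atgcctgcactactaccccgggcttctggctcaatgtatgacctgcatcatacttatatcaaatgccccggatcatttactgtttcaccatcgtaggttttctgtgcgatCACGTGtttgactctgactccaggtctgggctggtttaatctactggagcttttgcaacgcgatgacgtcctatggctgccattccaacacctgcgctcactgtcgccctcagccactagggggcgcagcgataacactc
Atp6v1a, chr16:44139260-44139509, minus strand: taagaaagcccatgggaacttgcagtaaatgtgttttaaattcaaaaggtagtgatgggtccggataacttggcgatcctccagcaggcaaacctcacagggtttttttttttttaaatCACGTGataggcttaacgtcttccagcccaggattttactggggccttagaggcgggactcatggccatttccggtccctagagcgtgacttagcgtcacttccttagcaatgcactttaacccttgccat
Mcoln1, chr8:3500269-3500518, plus strand: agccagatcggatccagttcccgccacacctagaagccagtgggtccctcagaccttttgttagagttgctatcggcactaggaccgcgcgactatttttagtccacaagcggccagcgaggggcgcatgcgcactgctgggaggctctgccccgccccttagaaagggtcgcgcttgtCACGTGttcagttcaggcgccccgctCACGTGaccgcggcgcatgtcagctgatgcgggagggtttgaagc
Acp5, chr9:22130599-22130848, minus strand: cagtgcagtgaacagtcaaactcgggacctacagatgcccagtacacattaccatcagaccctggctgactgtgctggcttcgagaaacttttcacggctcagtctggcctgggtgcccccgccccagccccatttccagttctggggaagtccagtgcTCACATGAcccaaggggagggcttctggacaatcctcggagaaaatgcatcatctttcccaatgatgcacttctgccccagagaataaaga
Lamp1, chr8:13158911-13159160, plus strand: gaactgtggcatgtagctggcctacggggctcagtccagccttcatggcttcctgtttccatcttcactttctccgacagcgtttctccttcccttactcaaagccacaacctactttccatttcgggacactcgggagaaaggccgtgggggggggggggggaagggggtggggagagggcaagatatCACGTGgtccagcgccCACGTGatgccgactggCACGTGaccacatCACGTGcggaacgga

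The core CACGTG, which reads the same on both strands, was present in 10 of the 35 members with a promoter (28.6%), against 8.09% of 27025 genes and 7.15% of 32851 promoters in the table. The 10 members were Gaa, Gla, Glb1, Arsa, Naglu, Lgmn, Lamp1, Mcoln1, Atp6v0d1 and Atp6v1a. The longer GTCACGTG, searched on both strands, was present in 8 members (22.9%), against 2.55% of genes. TCACGTGA was present in 4 members (11.4%), which were Gla, Mcoln1, Atp6v0d1 and Atp6v1a, against 1.12% of genes. Both longer motifs contain the core, so these counts overlap. TCATGTGA, searched after the first motifs had been counted, was present in 5 members (14.3%), against 1.15% of genes, and these were Gla, Ppt1, Tpp1, Acp5 and Grn.

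Members were called higher both with and without the core. Of the 10 members with CACGTG, 4 were called higher and 0 lower, with a median log2 ratio of 0.90. Of the 25 members with a promoter and no CACGTG, 4 were called higher and 1 lower, with a median of 0.30. Over the whole array, 13.6% of the 1224 measured genes with CACGTG were called higher, against 14.1% of all 10832 measured genes with a promoter, and 4.66% were called lower, against 4.92%. Their median was 0.11, against 0.06. For GTCACGTG 12.1% of 487 measured genes were called higher and for TCACGTGA 14.3% of 223, each with a median of 0.12. For TCATGTGA, 26.7% of 105 measured genes were called higher, with a median of 0.44. Among members, 2 of 8 with GTCACGTG were called higher, against 6 of 27 without it. For TCACGTGA these were 2 of 4 against 6 of 31, and for TCATGTGA 2 of 5 against 6 of 30. No count here was tested, and a match describes the letters of the window and not the binding of a factor.

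The copies lay mostly within 100 bases of the start. Lamp1 held CACGTG at -61, -45, -28 and -15, counted from the RefSeq transcript start to the first base of the motif, and Mcoln1 at -71 and -45. Single copies stood at -49 in Lgmn, -73 in Naglu, -48 in Glb1, -16 in Arsa and -3 in Atp6v0d1. Those of Gaa at -140, Atp6v1a at -131 and Gla at -227 and -194 were farther away. TCATGTGA began at -91 in Acp5, at -211 in Grn and in Gla, and just downstream of the start in Ppt1 at 14 and in Tpp1 at 5 and 17.

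**Figure D4:**
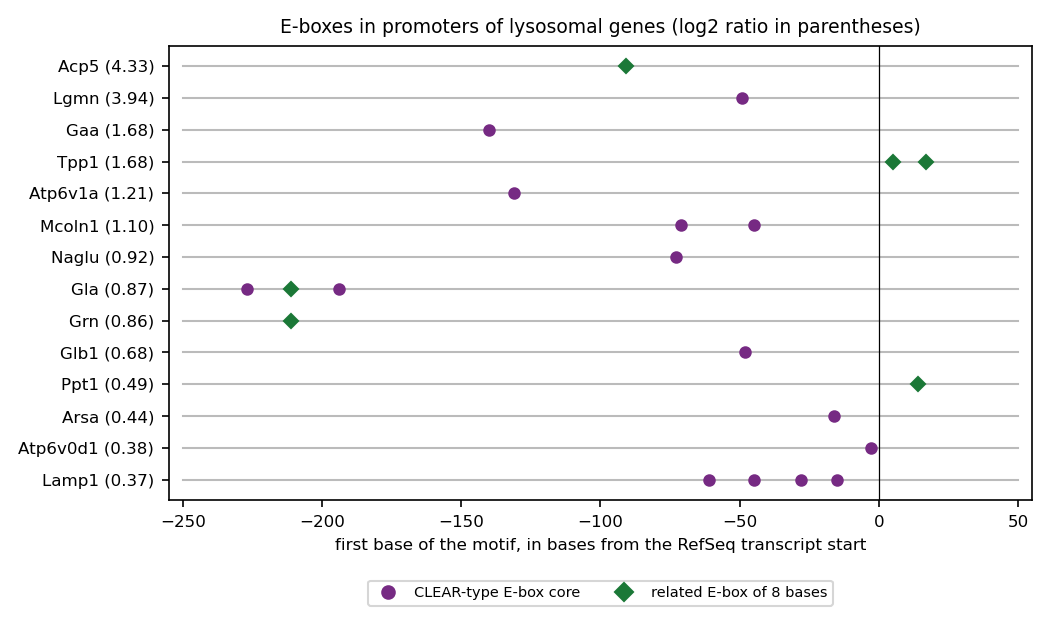
Each line is the promoter of 1 lysosomal gene from 250 bases before to 50 after the RefSeq transcript start (x axis, bases), sorted by log2 ratio of colon over blood, which stands in parentheses, with circles for CACGTG and diamonds for TCATGTGA. The 14 members that hold either motif range in log2 ratio from 0.37 for Lamp1 to 4.33 for Acp5, and the promoter with most copies, Lamp1, has the lowest ratio of them.

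The group of proteases, phosphatases and progranulin held the 2 highest ratios of the module, with a median of 2.07. Of its 5 members 4 were called higher (80.0%), against 14.4% of all measured genes. Under median centring 2 of the 5 were called higher, against 7.36% of all genes. The only proteases in the group were Lgmn and Tpp1, since cathepsins were left out, so the share does not describe lysosomal proteases as a class. Acp5 encodes tartrate-resistant acid phosphatase, an enzyme of osteoclasts and tissue macrophages. Its probe (chr9:21931190-21931249) read 115872 units in the colon pool and 14345 in the blood pool in Cy5, and 53435 in the colon pool and 3571 in the blood pool in Cy3. The colon pool was far brighter in each dye, and the ratio of 4.39 on array 1 and 4.26 on array 2 gave 4.33 ± 0.09, or 20.1-fold, at rank 141 of 15350. A second probe that overlaps the first gave 4.97 ± 0.07.

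Lgmn encodes legumain, the asparaginyl endopeptidase that trims cathepsins and cleaves antigens in lysosomes. Its probe (chr12:103632415-103632474) read 120272 units in the colon pool and 17997 in the blood pool in Cy5, and 54318 in the colon pool and 5160 in the blood pool in Cy3. The arrays agreed closely at 3.91 and 3.98, a mean of 3.94 ± 0.05 or 15.4-fold, at rank 205.

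The other 2 called members of this group were Acp2 and Tpp1. Acp2, the lysosomal acid phosphatase, read 1869 units in the colon pool and 622 in the blood pool in Cy5, and 682 in the colon pool and 259 in the blood pool in Cy3 (chr2:91051929-91051988). Its ratios of 2.26 and 1.89 gave 2.07 ± 0.26, or 4.21-fold, and a second probe gave 1.72. Tpp1, a peptidase that takes tripeptides from the ends of proteins and is lost in a neuronal storage disease, read 1336 units in the colon pool and 635 in the blood pool in Cy5, and 593 in the colon pool and 278 in the blood pool in Cy3 (chr7:112893532-112893591). Its ratios of 1.70 and 1.67 gave 1.68 ± 0.02, or 3.21-fold. Both genes were higher in each dye, and neither kept the call under median centring, where Acp2 was at 1.49 and Tpp1 at 1.11 without 2-fold on each array. Grn, the precursor of the granulins that support lysosomal enzymes, was not called at 0.86 ± 0.06.

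Of 12 glycan hydrolases 1 was called higher (8.33%), against 14.4% of all measured genes, and 10 of 12 lay above 0 with a median of 0.64. Under median centring the median of the 12 was -0.06. The called gene was Gaa, the acid α-glucosidase that degrades glycogen, whose loss causes Pompe disease. Its probe (chr11:119146697-119146756) read 15361 units in the colon pool and 7950 in the blood pool in Cy5, and 5322 in the colon pool and 3019 in the blood pool in Cy3. Its ratios of 1.79 and 1.58 gave 1.68 ± 0.15, or 3.20-fold. A second probe gave 0.73 on each array, and under median centring Gaa was at 0.93 and not called.

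A group of glycan hydrolases followed just below the threshold. Neu1, the sialidase that takes sialic acid from glycoproteins, was at 0.94 ± 0.06, and Naglu, an exoglycosidase of heparan sulfate, was at 0.92 ± 0.06. Gla, the α-galactosidase deficient in Fabry disease, was at 0.87 ± 0.35, with 1.12 on array 1 and 0.62 on array 2. These genes had not reached 2-fold on each array, and the spread of Gla between its arrays was among the wider ones. Hexa, the α-subunit of β-hexosaminidase, was at 0.81 ± 0.03, and Glb1, the acid β-galactosidase, at 0.68 ± 0.01. Gusb, the β-glucuronidase, was at 0.60 ± 0.16. The enzymes of N-glycan mannose and fucose were closer to 0, with Manba (β-mannosidase) at 0.30 ± 0.09, Man2b1 (α-mannosidase) at 0.29 ± 0.22 and Fuca1 (α-fucosidase) at 0.04 ± 0.05. The sulfatases Arsb and Galns, which desulfate dermatan and keratan sulfate, were at -0.14 ± 0.01 and -0.16 ± 0.02. Arsb read near the median spot of the array, at 91.2 units in the colon pool and 102 in the blood pool in Cy5.

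None of the 8 lipid-degrading enzymes and helpers was called, against 14.4% higher and 4.50% lower of all measured genes, and their median was 0.34. Lipa, the acid lipase that frees cholesterol from the esters of ingested lipoproteins, came nearest at 0.97 ± 0.08, with 0.91 on array 1 and 1.03 on array 2. Galc, the galactosylceramidase lost in Krabbe disease, was at 0.64 ± 0.15. Ppt1, which removes palmitate from proteins, was at 0.49 ± 0.08, and Arsa, which desulfates sulfatide, at 0.44 ± 0.06. The sphingolipid enzymes Smpd1 (acid sphingomyelinase) and Asah1 (acid ceramidase) were at 0.25 ± 0.21 and 0.24 ± 0.09, with a second Asah1 probe at 0.79. Thus by loess these enzymes lay above 0 and, in the mean of both arrays, within 2-fold. Under median centring Lipa and Galc stayed above 0, at 0.26 and 0.52. Ppt1, Arsa, Smpd1 and Asah1 were then below 0, at -0.14, -0.27, -0.46 and -0.48. The activator proteins, which lift lipids out of membranes for the enzymes, lay below 0 by loess and also by median centring. Psap, the precursor of the saposins, was at -0.13 ± 0.02 by loess, and Gm2a, the GM2 activator, at -0.49 ± 0.17. Under median centring they were at -0.96 and -1.19.

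Of 6 membrane and cholesterol-handling members 2 were called higher (33.3%), against 14.4% of all measured genes. The median of the group was 0.29. Npc1, the membrane protein that exports cholesterol from lysosomes, read 1305 units in the colon pool and 849 in the blood pool in Cy5, and 537 in the colon pool and 384 in the blood pool in Cy3. Its ratios of 1.23 and 1.13 gave 1.18 ± 0.07, or 2.26-fold. Npc2, the soluble protein that hands cholesterol to Npc1, was at -0.10 ± 0.11 and was not called. Under median centring Npc1 was at 0.59 and not called.

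Mcoln1, the lysosomal calcium channel mucolipin 1, read 6852 units in the colon pool and 6020 in the blood pool in Cy5, and 2899 in the colon pool and 2101 in the blood pool in Cy3 (chr8:3515110-3515169). Its ratios of 1.16 and 1.04 gave 1.10 ± 0.09, or 2.15-fold, close to the threshold, and it was at 0.99 by the software's ratios and 0.37 by median centring, uncalled in both. The abundant membrane glycoproteins were not called. Lamp1 was at 0.37 ± 0.55, with 0.76 on array 1 and -0.02 on array 2, and Lamp2, which also serves chaperone-mediated autophagy, at 0.04 ± 0.17. Laptm5, a lysosomal protein of blood cells, was at 0.21 ± 0.62, with -0.23 on array 1 and 0.65 on array 2. For Lamp1 and Laptm5 the arrays disagreed in sign, so no direction can be given.

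The proton pump had 4 of its 8 members called higher, against 14.4% of all measured genes, and a median of 0.88. Of the 8, 0 were called higher under median centring, against 7.36% of all genes, and their median was 0.29 by that scaling. In the membrane sector, Atp6v0a1, an isoform of the large a subunit through which protons pass, read 4382 units in the colon pool and 2396 in the blood pool in Cy5, and 1609 in the colon pool and 1312 in the blood pool in Cy3 (chr11:100924969-100925028). Its ratios of 1.20 and 1.41 gave 1.31 ± 0.15, or 2.48-fold. In the cytosolic sector, Atp6v1a, the catalytic subunit that hydrolyses ATP, read 10826 units in the colon pool and 7887 in the blood pool in Cy5, and 3921 in the colon pool and 2989 in the blood pool in Cy3 (chr16:44085826-44085885). Its ratios of 1.30 and 1.13 gave 1.21 ± 0.12, or 2.32-fold, and a second probe gave 1.16. Atp6v1c1, a subunit of the stalk that holds the sectors together, read 2829 units in the colon pool and 1532 in the blood pool in Cy5, and 974 in the colon pool and 606 in the blood pool in Cy3 (chr15:38621773-38621832). Its ratios of 1.68 and 1.27 gave 1.47 ± 0.29, or 2.78-fold. The 3 genes were brighter in the colon pool in each dye, and under median centring they were at 0.62, 0.47 and 0.81 and not called.

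The module holds both isoforms of subunit d, which couples the rotor to the membrane ring. Atp6v0d2, the isoform known from osteoclasts and some macrophages, read 195 units in the colon pool and 48 in the blood pool in Cy5, and 104 in the colon pool and 58.7 in the blood pool in Cy3 (chr4:19805367-19805426). The blood pool was not well above background on either array, so the fitted ratios of 1.10 and 1.06 (mean 1.08 ± 0.03) are a bound, of at least 2.11-fold higher. A bound takes, on each array, the higher of the dim probe's own signal and the dimmest signal of any probe that passed the background test, and for Atp6v0d2 its own signal was the higher on both arrays, so the bound equals the fitted fold. A second probe of the gene gave 0.13, and with the mean over both probes Atp6v0d2 was at 0.60 and not called. Under median centring Atp6v0d2 was at 1.14 and not called. Atp6v0d1, the ubiquitous isoform, read 7715 units in the colon pool and 9729 in the blood pool in Cy5, and 2698 in the colon pool and 3756 in the blood pool in Cy3 (chr8:108048778-108048837). Its ratios of 0.49 and 0.28 (mean 0.38 ± 0.15) were below the threshold.

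The remaining pump members did not pass. Atp6v1h, a regulatory subunit of the cytosolic sector, was at 0.69 ± 0.02, and Atp6ap1, an accessory protein of assembly, at -0.11 ± 0.28. Atp6v1b2, the B subunit that alternates with the catalytic subunit in the head of the pump, was at -0.81 ± 0.06, with -0.85 on array 1 and -0.77 on array 2. It was called lower at -1.19 by the software's ratios, by which 13.1% of all genes were called lower. Its probe read 498 units in the colon pool and 1284 in the blood pool in Cy5, and 218 in the colon pool and 634 in the blood pool in Cy3. The A and B subunits of the same head therefore lay on opposite sides of 0 on both arrays.

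Genes of the same organelle outside the module were listed with earlier results of these data known. Of 28 other hydrolases and activators, 8 were higher (28.6%) and 1 lower (3.57%), against 14.4% and 4.50% of all measured genes. The median log2 ratio of the 28 was 0.44. The highest were Dpp7, a dipeptidyl peptidase, at 2.50 ± 0.02, Epdr1, an ependymin-related protein, at least 3.99-fold higher over a blood pool not well above background, and Pla2g15, a lysosomal phospholipase, at 1.95 ± 0.23. Naaa, an amidase of fatty acid ethanolamides, was lower at -1.70 ± 0.08. Hydrolases outside the module were thus found on both sides of the threshold.

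The median log2 ratio of 27 other membrane proteins and transporters was 0.31. Of these, 6 were higher (22.2%) and 0 lower, against 14.4% and 4.50% of all measured genes. They were led by Cd63, a tetraspanin of late endosomes, at 4.68 ± 0.29, Mcoln2, a relative of Mcoln1, at 4.44 ± 0.29, and Slc15a3, a carrier of histidine and small peptides, at 2.16 ± 0.17. Of 11 other pump subunits 2 were higher (18.2%), near the 14.4% of all measured genes, with a median of 0.57. These were Atp6ap2, an accessory protein also known as the prorenin receptor, at 1.80 ± 0.09, and Atp6v0e2, at least 2.53-fold higher over a blood pool not well above background, which is also its fitted fold because its own blood signal was the higher on both arrays.

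Of the sorting genes, which deliver hydrolases to lysosomes, 3 of 19 were higher (15.8%) and 1 was lower (5.26%), near the background shares. Igf2r, the large mannose 6-phosphate receptor, was higher at 1.88 ± 0.14, and so was Gga2, an adaptor that loads such receptors into vesicles, at 1.88 ± 0.11. Vps18, a subunit of the tethering complexes that fuse endosomes with lysosomes, was higher at 1.43 ± 0.15. Sort1, encoding sortilin, another receptor that sorts lysosomal proteins, was lower at -3.18 ± 0.12. Of 19 regulators of TFEB and of lysosomal mTORC1, 3 were higher (15.8%, near the background share) and 0 lower, and their median log2 ratio was 0.17. They were Fnip2 at 2.09 ± 0.32 and Fnip1 at 2.06 ± 0.05, which encode the binding partners of folliculin, and Lamtor3, a part of the scaffold that holds mTORC1 at the lysosome, at 1.10 ± 0.11. Under median centring the medians of these 5 lists lay between -0.30 and -0.13, against -0.29 for all genes. From their 28, 27, 11, 19 and 19 measured genes, 5 in all were called higher and 2 lower. Over all genes 7.36% were called higher and 3.58% lower under that scaling, and both shares of the lists together lay below these.

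**Figure D5:**
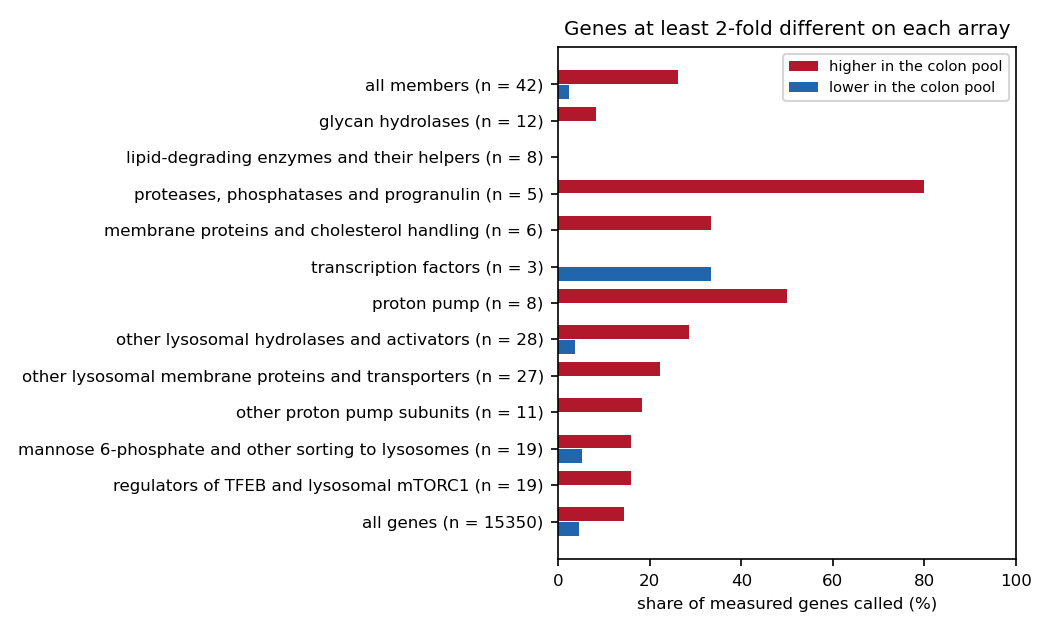
Bars give the share of measured genes (x axis, percent) that were called higher (red) and lower (blue) in the colon pool, for the 42 members, their roles, the other lysosomal lists and all genes, with the number measured in parentheses. By loess, the 5 genes of the group of proteases, phosphatases and progranulin, which holds no cathepsins, reach 80.0%. The proton pump follows with 4 of 8 called, while the sorting and regulator lists stand at 15.8%, and all genes at 14.4%.

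The labels of the pools were checked against markers, and genes of other cell types moved with the comparison. Of 11 markers of resident intestinal macrophages 9 were higher in the colon pool, led by Adamdec1 at 7.43 and Ms4a7 at 6.97. Cx3cr1 itself at 0.10 and Csf1r at 0.95 were not called. Only the colon cells had 1 Cx3cr1 allele replaced by the fluorescent protein gene, so for Cx3cr1 genotype and tissue cannot be told apart. All 6 of 6 measured markers of Ly6C-high monocytes were lower, led by Chil3 at -6.98 and Plac8 at -4.55. Markers of fibroblasts were also higher (6 of 6, led by Dcn at 7.01 and Lum at 6.82), as were those of epithelium (4 of 6, Krt8 at 4.01 and Lgals4 at 3.60), of B and plasma cells (6 of 7, or 3 of 7 under median centring, Jchain at 5.18 and Mzb1 at 3.65) and of T cells (3 of 5, Cd28 at 3.09 and Zap70 at 2.67). Of all measured genes 14.4% were called higher and 4.50% lower. The epithelial markers not called were Epcam at 0.42 and Cdh1 at 0.47. Cd79a at 0.70, Cd3e at 0.58 and Cd3g at 0.79 were not called either. In Cy5 the fibroblast list summed to 134660 units in the colon pool and 2024 in the blood pool, and in Cy3 to 56389 in the colon pool and 901 in the blood pool. The other lists are given in Cy5 only. The epithelial list summed to 6417 units in the colon pool and 695 in the blood pool, the B and plasma cell list to 43184 in the colon pool and 4315 in the blood pool, and the T cell list to 2947 in the colon pool and 727 in the blood pool. In the blood pool Pdgfra, Epcam, Krt19, Vil1, Cd79a and Cd3g were not well above background on either array, and Lum was above it on 1 of 2. Of 6 measured neutrophil markers 2 were lower, S100a8 at -3.63 and S100a9 at -3.28, and the list summed to 11695 units in the colon pool and 139449 in the blood pool. Most of that blood sum came from S100a8 (36969 units) and S100a9 (101740 units). The other 4 were not called, with Elane at 0.47, Ltf at 0.00, Mpo at -0.27 and Camp at -0.33. The part of these other cells in the lysosomal ratios was not tested.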

How the data were processed

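RNA from 2 pools was compared on 2 Agilent arrays for the whole mouse genome (60-base probes) with dyes swapped. Per the labels' protocols, 25 ng of total RNA were amplified from an oligo-dT primer and labelled. The deposited scanner files give the mean spot intensity and local background of each channel for 44397 spots. They were made with Feature Extraction 10.7.3.1 per the file headers, and 10.5.1.1 per the submitters' processing notes. The series' deposited table of values repeats the log10 ratio, red over green, of that software without further scaling (largest difference 4.81e-08). No spot was saturated, and 52.9% to 59.6% of spots per channel were well above background.

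Mean intensities were corrected with limma 3.58.1 (normexp, offset 50, against the median local background) in R 4.3.3 and normalised by loess within arrays, with control and outlier spots at weight 0. The software's own ratios carry its linear and LOWESS dye normalisation, per the file headers. The ratio of array 2 was turned to colon over blood and both arrays were averaged as 1 replicate. Spots of a probe were averaged, and the probe of highest mean intensity stood for its gene. Bounds used channel signals after loess and Aquantile. Probe positions are those of the files (mm9). The pipeline was run on simulated arrays in which a small set of probes was changed equally up and down. That setting lacks the excess of higher calls seen here, so it cannot decide between the scalings. Alternatives were background correction, scaling, probe choice, filters, fold thresholds and each array alone.

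All members were named, with values per array for called members, the transcription factors and the isoforms of subunit d, and up to 3 called genes per direction in each other list. The members and lists were chosen with earlier results of these data known. Atp6v1b2, Gla, Lipa, Lamp1 and Laptm5 were given values per array after these had been seen.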

Additional observations from a re-analysis of the deposited data

How the results depend on the processing

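The number of members called higher was 10 or 11 under every background correction, probe rule and filter tried and under the software's ratios, with 11 as reported. It was 2 under median centring, with a median member of -0.08, and 19 at a threshold of 1.5-fold (45.2%, against 22.5% of all genes) and 4 at 3-fold (9.52%, against 8.78%). The software's ratios and the deposited value table gave 2 members called lower (Tfeb and Atp6v1b2), or 4.76%, against 13.1% of all genes. The median member by these ratios was at 0.52. At 1.5-fold 2 members were called lower and at 3-fold 0, against 11.1% and 1.83% of all genes. With 1 array left out, 12 members were called higher (28.6%, against 15.5% of all genes without array 1 and 17.1% without array 2) and 1 lower, with the median at 0.58 and 0.69, as Lipa passed at 1.03 without array 1 and Gla at 1.12 without array 2. Of 11 members called higher, 2 (Acp5 and Lgmn) kept the call under all 11 settings of scaling, filter and array. Median centring took the call from the other 9, and no called member changed sign. The settings are not separate checks. The deposited table repeats the software's ratios, and Aquantile scaling left the ratios of the members unchanged. Every member was measured, so leaving out the filter on dim probes changed no member's value. Over all genes, 76.1% of calls were higher by loess, 67.3% by median centring and 60.8% by the software's ratios, and the calls numbered 2204 higher and 691 lower by loess, 1130 and 550 by median centring, and 3129 and 2017 by the software's ratios. The settings relative to the bin of intensity and the motif TCATGTGA were chosen after seeing the data. No paired analysis was possible because both arrays hold the same 2 pools. Dim probes such as Atp6v0d2 give only bounds, and 1 pool per group leaves the spread between mice unmeasured.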
